A study of Homo sapiens with 4 samples.

Results

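The 7 genes described here encode the proteins that carry out microRNA silencing in human cells: the Argonautes AGO1, AGO2, AGO3 and AGO4, and the scaffold proteins TNRC6A, TNRC6B and TNRC6C. They were chosen by symbol, and all 7 were found among the 26364 gene symbols of the count table. The libraries came from HCT116, a human colorectal carcinoma line, in a wild type form and in a form labelled Dicer1 knockout. DICER1 is the enzyme that cuts microRNA precursors. Cytoplasmic extract was spun through a sucrose gradient, and RNA was sequenced from heavy polysomes, which carry 10 or more ribosomes per mRNA, and from light polysomes, which carry 9 or fewer. Each of the 4 groups (wild type heavy, wild type light, labelled knockout heavy, labelled knockout light) had 1 library. The labels do not say whether the altered line is 1 clone, where the gene was altered, or which clone served as wild type.

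An Argonaute protein holds a microRNA and uses its seed, bases 2 to 8, to find sites in mRNAs. TNRC6 proteins, also called GW182 proteins after their glycine and tryptophan repeats, bind the Argonaute and bring in the deadenylase complexes CCR4-NOT and PAN2-PAN3, which shorten the poly(A) tail. AGO2 is the Argonaute best known for cutting fully paired targets, and all 4 can recruit TNRC6 proteins.

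Library totals ran from 17457116 to 20933675 counts, and ribosomal RNA took 2.61 to 5.97% of them. All intervals given are 95% limits computed from the counts, and they cover counting error only. Reads that carry no molecular identifier may copy 1 molecule, so even that error may be larger than the intervals show. In bulk samples, fewer cells of a type and less RNA per cell cannot be told apart, and a change in the total amount of an mRNA cannot be told apart from a change in its share on polysomes within 1 fraction. Of 7 epithelial markers of the line, 6 were abundant enough for the fit and VIL1 had no count in any library. Counts over the libraries ran from 11421 to 71673 for KRT19 and from 219 to 579 for CDX2, the lowest of the 6. Of 15 markers of fibroblasts, endothelium and blood, 4 had no count in any library and only COL1A1 and CD68 were abundant enough for the fit. The summed level of these 15 was 54.7 and 67.5 CPM in wild type and labelled knockout heavy polysomes and 24.1 and 28.3 CPM in light ones. Their part in the results was not tested.

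AGO4, AGO1 and AGO3 lie in this order, all on the plus strand, within 1 stretch of chromosome 1 (GRCh38: AGO4 chr1:35808016-35857890, AGO1 chr1:35869808-35930532, AGO3 chr1:35930718-36072500). Only 185 bases separate the annotated end of AGO1 from the start of AGO3. AGO2 lies at chr8:140520156-140635633 on the minus strand. TNRC6A (chr16:24610209-24827632), TNRC6B (chr22:40044817-40335808) and TNRC6C (chr17:77958703-78108822) are on the plus strand. No stretch of 50 bases in the canonical transcript of one of the 7 genes occurred in another of them, so the members share no reads of that length. TNRC6C shared 13.3% of its 50-base windows with TMC6, a gene on the opposite strand, and reads there cannot be told apart because the strand setting is not given in the sources used here. The other 6 members shared 0.00 to 2.54% with any other gene.

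The 2 subfamilies differ in the build of their mRNAs. The 4 Argonaute coding sequences are nearly equal in length, from 2574 to 2586 nucleotides, and those of the TNRC6 genes run from 5502 to 5889, against a median of 1320 over 18770 protein-coding genes. The 3′ UTRs in GENCODE are long: 10925 nucleotides in AGO1, 11888 in AGO2, 16755 in AGO3, 4285 in AGO4, 2411 in TNRC6A, 12567 in TNRC6B and 3977 in TNRC6C. The median 3′ UTR has 1090, and AGO3's is longer than those of 99.9% of genes. TNRC6A thus has the shortest 3′ UTR of the 7, longer than 74.5% of all.

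MicroRNA seed matches were counted in these 3′ UTRs, because the mRNAs of the silencing proteins can themselves be targets. Of 20 microRNAs listed, 19 had a mature sequence in the RefSeq table (GRCh38.p14), and hsa-miR-130a-3p had none. A match is the 7-base complement of bases 2 to 8, on the mRNA strand. TNRC6A had 11 matches (4.56 per kilobase), against 2.03 per kilobase over all 3′ UTRs. AGO4 had 3.50 per kilobase, TNRC6B 3.42, AGO2 3.11, TNRC6C 3.02, AGO1 2.47 and AGO3 2.03. The sequences below are those with the densest repeats in the 2 members with the highest ratio of labelled knockout to wild type in heavy polysomes, and they were chosen after the values were seen. For TNRC6A this is miR-30a, whose site TGTTTAC occurs 4 times in its 3′ UTR. Capitals mark the seed in the microRNA and the match in the mRNA.
hsa-miR-30a-5p: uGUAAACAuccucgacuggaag
TNRC6A, chr16:24824262-24824268: tcccagtgtcaaTGTTTACtcaagggtgtt
TNRC6A, chr16:24824553-24824559: tttgaaccttctTGTTTACagatttttttg
TNRC6A, chr16:24824593-24824599: gagaaaaaaaaaTGTTTACtcttccatcat
TNRC6A, chr16:24825359-24825365: gtggcttttaacTGTTTACaaatagaatgt

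Positions are those of the capitals on the plus strand of GRCh38, in the last exon of TNRC6A. This match occurred in 16.0% of all 18770 3′ UTRs. Among 2359 genes with a 3′ UTR within 20% of the length of TNRC6A's, 22.9% held it at least once and 0.127% held it 4 times or more. The other members held it 3 times (AGO2), 2 times (AGO3, TNRC6B and TNRC6C), 1 time (AGO1) and 0 times (AGO4). In AGO1 the densest was miR-148a, whose site TGCACTG occurs 5 times.
hsa-miR-148a-3p: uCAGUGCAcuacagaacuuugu
AGO1, chr1:35921089-35921095: gcctccctcctcTGCACTGtcctgcactct
AGO1, chr1:35923337-35923343: ggcagccaagggTGCACTGactattagctg
AGO1, chr1:35923896-35923902: acatttgttgaaTGCACTGagtcccttggt
AGO1, chr1:35928179-35928185: gtctttcctgcaTGCACTGagtatttggta
AGO1, chr1:35928818-35928824: tttaggaaatttTGCACTGggtatttgatg

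The miR-148a match occurred in 14.0% of all 3′ UTRs and in 53.3% of the 227 of like length to AGO1's, none of which held it 5 times. Repeats as rare were found in other members too, among the 19 microRNAs searched. TNRC6B held 7 matches of miR-141 and AGO2 held 5 of miR-103a. None of the 133 and 163 3′ UTRs of like length held as many. Matches of let-7a, CTACCTC, were found in AGO1 (1), AGO2 (2) and AGO3 (1), and none in AGO4 or the 3 TNRC6 genes. It is present in 9.86% of all 3′ UTRs, but in 48.0%, 49.1% and 53.2% of those of like length to AGO1's, AGO2's and AGO3's. These are matches of letters in an annotated sequence, not sites shown to be bound. MicroRNA levels in these cells were not analysed here.

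The levels of the 7 mRNAs were compared between genes as CPM (counts scaled to library size) per kilobase of merged exons. AGO3 was the lowest in all 4 libraries, from 0.483 in wild type heavy to 0.566 in wild type light polysomes. In wild type heavy polysomes TNRC6B was the highest at 3.12, followed by TNRC6A (2.33), AGO2 (2.11), TNRC6C (1.79), AGO1 (1.22), AGO4 (0.895) and AGO3. The intervals of TNRC6A and AGO2 overlapped, as did those of AGO2 and TNRC6C. In wild type light polysomes AGO2 (2.62), AGO4 (2.42), AGO1 (2.14) and TNRC6A (1.96) led, each overlapping the next. TNRC6B (1.32) and TNRC6C (0.767) came after them.

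In the labelled knockout TNRC6A was the highest member in both fractions, at 7.88 in heavy and 4.88 in light polysomes per kilobase. TNRC6B (4.10), AGO2 (3.52) and AGO1 (3.06) followed in heavy polysomes without overlap. In light polysomes AGO1 (3.26) and AGO2 (3.04) overlapped and lay above TNRC6B (2.29) and AGO4 (1.98). The order rests on the length used, because the authors' annotation is not given in the sources used here. Per kilobase of coding sequence AGO2 was highest in each library (13.0 to 21.6). The lowest was AGO4 in heavy polysomes (2.57 and 3.68, against 3.58 and 4.38 for TNRC6C) and TNRC6C in light ones (1.54 and 1.51).

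**Figure D1:**
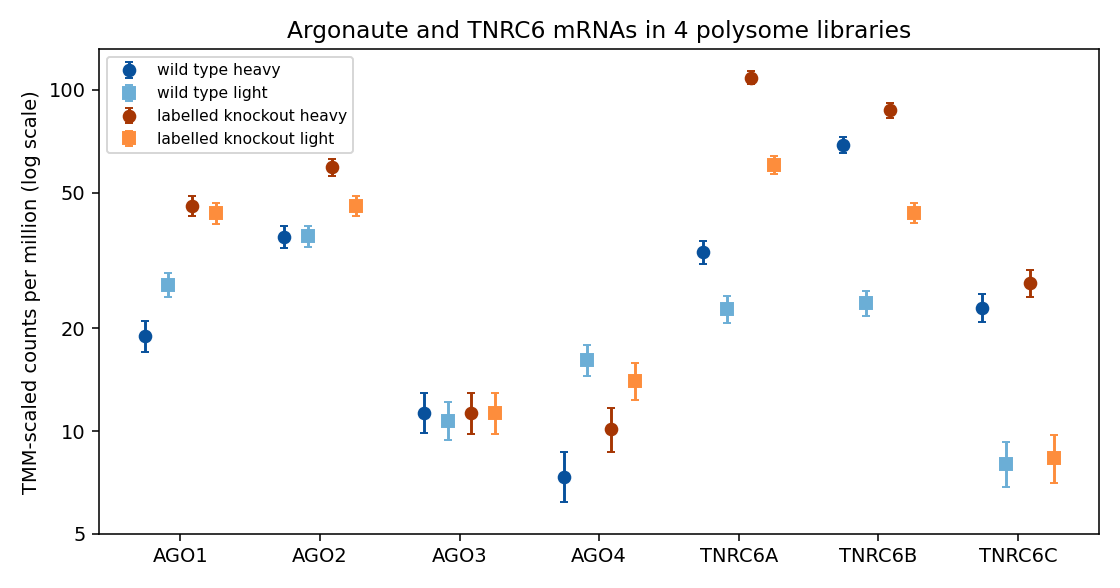
TMM-scaled CPM (log axis) of the 7 mRNAs in the 4 libraries, with exact Poisson intervals for counting error. The TNRC6 genes stand higher in heavy (circles) than in light polysomes (squares), AGO4 stands lower in heavy, and TNRC6A reaches 109 in labelled knockout heavy polysomes.

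The first comparison asked which of these mRNAs sit in heavy and which in light polysomes. The 3 TNRC6 mRNAs rose in heavy over light polysomes, AGO4 fell, and AGO1, AGO2 and AGO3 were not called. So 4 of 7 members were called in either direction, where 59.3% of all genes were: 3 toward heavy polysomes, where 30.0% of all 13574 genes tested were, and 1 toward light polysomes, where 29.3% were (edgeR quasi-likelihood test, Benjamini-Hochberg adjusted p under 0.05, 2 gradients with the gradient as a block). The median log2 ratio was 0.18 over the 7 members and -0.07 over all genes. With library totals in place of TMM, 38.9% of all called genes lay toward heavy polysomes against 50.6% in the main fit, and the median of all genes was -0.30.

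The wild type gradient gave TNRC6C 435 counts in its heavy and 176 in its light library, and the labelled knockout gradient gave 490 and 153. Both heavy libraries lay above both light ones. Its fitted log2 ratio was 1.61 (SE 0.27, edgeR adjusted p = 1.67e-08), the largest of the 7. Its neighbour on the opposite strand, TMC6, went a different way, with log2 ratios of -0.32 and 0.08 in the gradients, against 1.51 and 1.69 for TNRC6C.

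For TNRC6B the heavy library held 1307 and the light 522 counts in the wild type gradient, against 1577 and 801 in the other. Again the heavy libraries lay above the light ones, and the fitted ratio was 1.27 on the log2 scale (SE 0.27, adjusted p = 1.30e-05 by edgeR). TNRC6A counts were 633 (heavy) and 501 (light) without the label and 1966 and 1105 with it. Its ratio was 0.71 (SE 0.27, adjusted p = 0.0158, edgeR). For TNRC6A the libraries of the fractions overlapped, since labelled knockout light polysomes held more than wild type heavy ones. The call of TNRC6A was lost with library totals (0.48, adjusted p = 0.115) and without the gradient as a block (0.78, adjusted p = 0.287, edgeR).

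AGO4 counts were 139 (heavy) and 355 (light) in the wild type gradient, then 183 and 257 in the labelled knockout gradient. The heavy libraries lay below the light ones, and the ratio was -0.80 (SE 0.27, edgeR adjusted p = 0.00608). It was not called without the block (-0.79, adjusted p = 0.0831). AGO1 (-0.21, SE 0.26, adjusted p = 0.492), AGO2 (0.18, SE 0.26, adjusted p = 0.556) and AGO3 (0.04, SE 0.26, adjusted p = 0.916) were not called by edgeR. These values do not show equal amounts in both fractions, since each SE exceeds the ratio.

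The subfamilies were also compared gene against gene, as the difference of their heavy to light ratios, in which library scaling cancels. In each gradient, all 12 pairs of an Argonaute and a TNRC6 gene had a lower heavy to light ratio for the Argonaute, with a counting interval that excluded 0. The pairs reuse the same genes and are not independent. The same count over other gene pairs was not made, and genes of like coding length to the 2 subfamilies also differ in this direction. The nearest pair in the wild type was AGO3 against TNRC6A (difference -0.48, interval -0.79 to -0.16), and in the labelled knockout AGO2 against TNRC6A (-0.48, -0.65 to -0.31). The largest was AGO4 against TNRC6B in the wild type (-2.68, -3.00 to -2.36). Summed over genes, TNRC6 counts were 1.68 times the Argonaute counts in wild type heavy and 0.599 times in wild type light polysomes. In the labelled knockout they were 1.76 and 0.978 times.

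Coding length is known to set how many ribosomes an mRNA can hold, so each member was set beside protein-coding genes with a coding length within 20% of its own that reached 50 counts in all 4 libraries. For the Argonautes these were 1657 to 1666 genes with a median log2 heavy to light ratio of 0.68 to 0.69. All 4 Argonautes lay below it: 4.95% of the genes of like length lay below AGO4, 19.1% below AGO1, 27.6% below AGO3 and 32.2% below AGO2. For the TNRC6 genes, 343 to 393 genes of like length had medians of 0.92 to 0.94. TNRC6B and TNRC6C lay above it (69.5% and 80.3% of genes below them) and TNRC6A below it (36.2%).

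Beside genes with a 3′ UTR of like length the Argonautes stood near the middle, apart from AGO4. The share of such genes below the member was 43.2% for AGO1 (139 genes), 61.8% for AGO2 (102), 55.2% for AGO3 (29) and 18.8% for AGO4 (1112). TNRC6B and TNRC6C stood above 93.4% of 91 and 94.8% of 1193 genes, and TNRC6A above 69.5% of 1513. These shares are descriptions and were not tested.

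**Figure D2:**
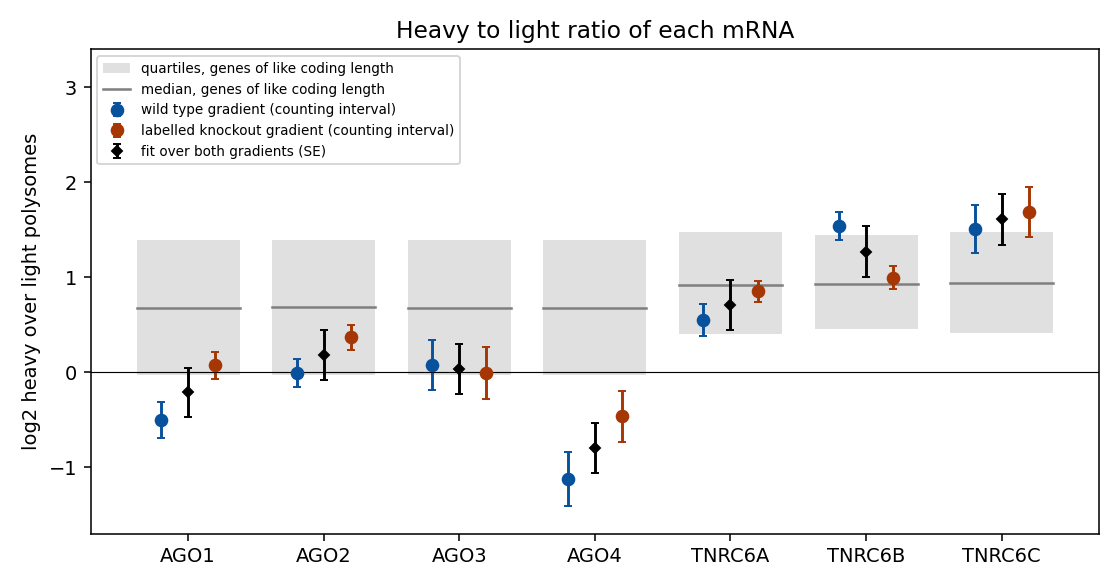
Log2 heavy to light ratio of the 7 mRNAs in each gradient (counting intervals) and in the fit over both (diamonds, bars are SE), over the median and quartiles of genes of like coding length (grey). The 4 Argonautes lie below their grey median of 0.68 to 0.69, and TNRC6B and TNRC6C lie above theirs.

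The second comparison was between the genotypes, fraction by fraction. The label was checked first on DICER1 itself: 500 (heavy) and 547 (light) counts without the label became 925 and 889 with it. Its mRNA was thus higher, not lower, under the knockout label (log2 ratio 0.95 and 0.96), and such gene-level counts say nothing of the protein or of the altered stretch. Every direction between the genotypes rests on the label. With 1 library on each side there is no replicate check and no p-value, and the intervals describe these libraries only.

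TNRC6A stood out among the 7. From 633 counts in wild type heavy to 1966 in labelled knockout heavy polysomes, and from 501 to 1105 in light ones, its log2 ratio reached 1.70 in the heavy fraction (interval 1.57 to 1.82) and 1.40 in the light one (1.25 to 1.55). That is 3.24-fold and 2.64-fold. Of 10834 genes that reached 50 counts in all 4 libraries, 0.295% lay above it in heavy and 0.942% in light polysomes. It was the 1 member of 7 at least 2-fold higher in both fractions, where 1.17% of 10418 genes were, and no member was 2-fold lower in both, where 1.20% were. These 10418 genes reached 100 counts on at least one side of both genotype pairs.

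AGO1 came next, going from 359 to 827 counts between the heavy libraries and from 592 to 798 between the light ones. Its log2 ratios were 1.26 (interval 1.08 to 1.44) and 0.69 (0.54 to 0.84). In heavy polysomes 1.16% of genes lay above it. Together, TNRC6A and AGO1 were the 2 of 7 members past 2-fold in the heavy fraction (3.12% of genes) and past 1.5-fold in both (4.26%), and TNRC6A was the 1 of 7 past 2-fold in the light fraction (4.01%). AGO2, the cutting Argonaute, went from 701 to 1072 in heavy and from 819 to 842 in light polysomes, with ratios of 0.67 (0.54 to 0.81) and 0.30 (0.16 to 0.44). Both labelled knockout libraries lay above both wild type libraries for AGO1 on the CPM scale (45.7 and 43.4 against 19.0 and 26.9) and for AGO2 (59.2 and 45.8 against 37.1 and 37.2).

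TNRC6B had ratios of 0.33 in heavy (0.23 to 0.44) and 0.88 in light polysomes (0.72 to 1.04), the reverse order of size to AGO1 and AGO2. Together with TNRC6A, AGO1 and AGO2 it made 4 of 7 members with an interval above 0 in both fractions, where 19.6% of all genes were, and with TNRC6C 5 of 7 had ratios above 0 in both, where 30.8% were. TNRC6C stood at 0.23 (0.05 to 0.42) and 0.06 (-0.25 to 0.37), and its light ratio was -0.03 with library totals in place of TMM. AGO3 stood at -0.01 (-0.28 to 0.27) with 214 and 204 counts in heavy and 0.08 (-0.19 to 0.35) with 236 and 208 counts in light polysomes. AGO4 was higher in heavy (0.45, 0.14 to 0.77) and at -0.20 in light polysomes (-0.43 to 0.03). The median over the 7 was 0.45 in heavy and 0.30 in light polysomes, against -0.03 and 0.02 over 10834 genes.

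AGO1 and AGO3, which are neighbours on chromosome 1, thus gave unlike values. The log2 ratio of AGO1 exceeded that of AGO3 by 1.27 in heavy (0.94 to 1.60) and by 0.61 in light polysomes (0.30 to 0.92), a difference free of library scaling. AGO1 exceeded AGO4, its neighbour on the other side, by 0.81 (0.44 to 1.17) and 0.90 (0.62 to 1.17). TNRC6A exceeded TNRC6C by 1.46 (1.24 to 1.69) and 1.34 (0.996 to 1.69), and TNRC6B by 1.36 (1.20 to 1.53) in heavy and 0.52 (0.30 to 0.74) in light polysomes.

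Most genes of like length lay below TNRC6A and AGO1. The 343 genes of like coding length to TNRC6A had median ratios of 0.16 and 0.27, and 0.583% and 1.75% of them lay above it. The 1513 genes of like 3′ UTR length had medians of 0.03 and -0.04. For AGO1, 1.44% of 1666 genes of like coding length lay above it in heavy and 14.6% in light polysomes. Outside the 7 members, 12 genes that passed the count minimum of 100 held 4 or more miR-30a matches, with medians of 0.24 and 0.46. The 8269 with none had -0.06 and 0.03, and the 386 with 2 or more had 0.15 and 0.01. For miR-148a the 3 genes with 5 or more matches had medians of -0.22 and -0.37, and the 261 with 2 or more had 0.20 and 0.05. The 8527 with none had -0.05 and 0.03. The classes by number of matches were not matched for 3′ UTR length. The 1112 genes of like 3′ UTR length to AGO4's had medians of 0.15 and 0.08, and the 139 to AGO1's had 0.06 and 0.08. Both microRNAs were picked after the values were seen, and these medians were not tested.

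**Figure D3:**
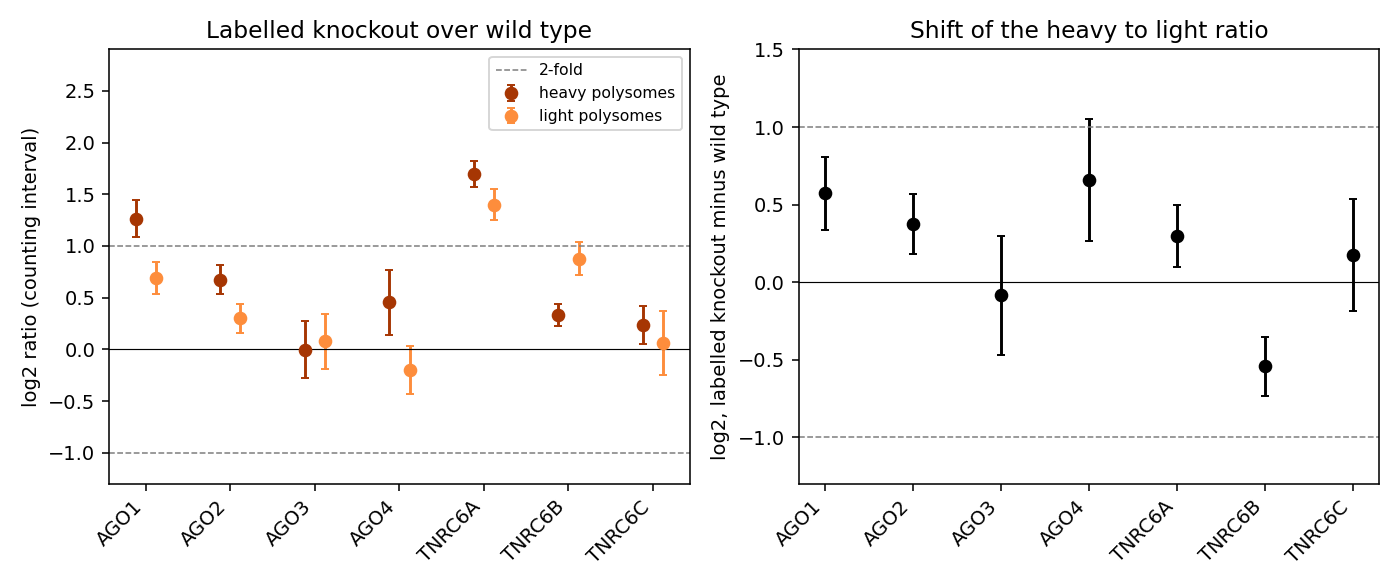
Left, labelled knockout over wild type (log2) in heavy and light polysomes with counting intervals; dashed lines mark 2-fold. Right, the change in the heavy to light log2 ratio from wild type to labelled knockout; TNRC6A alone lies above 2-fold in both fractions on the left, and TNRC6B alone has an interval below 0 on the right.

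The same counts were also taken as each gene's share of its subfamily within a library, which needs no scaling. TNRC6A made up 26.7% of the TNRC6 counts in wild type heavy polysomes (exact binomial interval 24.9 to 28.5%, of 2375 counts) and 48.7% in labelled knockout heavy ones (47.2 to 50.3%, of 4033). In light polysomes it was 41.8% (39.0 to 44.6%, of 1199) and 53.7% (51.5 to 55.8%, of 2059). TNRC6B, the main member in wild type heavy polysomes at 55.0%, stood at 39.1% in labelled knockout heavy ones. TNRC6C ran from 7.43% in labelled knockout light to 18.3% in wild type heavy polysomes.

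Among the Argonautes AGO2 held the largest share of counts in all 4 libraries, 49.6% and 40.9% in wild type heavy and light polysomes and 46.9% and 40.0% in the labelled knockout. Per length of merged exons AGO1 exceeded it in labelled knockout light polysomes (36.8 against 34.4%), where the intervals of their levels overlapped. Per kilobase of coding sequence AGO2 was the higher there (18.7 against 17.8 CPM). AGO1 made up more of the labelled knockout counts, going from 25.4% (23.2 to 27.8%) to 36.2% (34.2 to 38.2%) in heavy and from 29.6% to 37.9% in light polysomes. AGO3 stood at 15.1% and 8.92% in heavy polysomes of the wild type and the labelled knockout. AGO4 was at 9.84% and 17.7% in wild type heavy and light polysomes and at 8.01% and 12.2% in the labelled knockout. Shares of counts depend on mRNA length: per length of merged exons AGO4 made up 19.0% and 31.3%, then 15.3% and 22.4%. That was above AGO3 in each library (at most 10.3%). Per kilobase of coding sequence AGO4 lay below AGO3 in both heavy libraries (2.57 and 3.68 against 3.96 and 4.11 CPM). It stayed above AGO3 in the light ones (6.96 and 5.69 against 4.63 and 4.61).

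**Figure D4:**
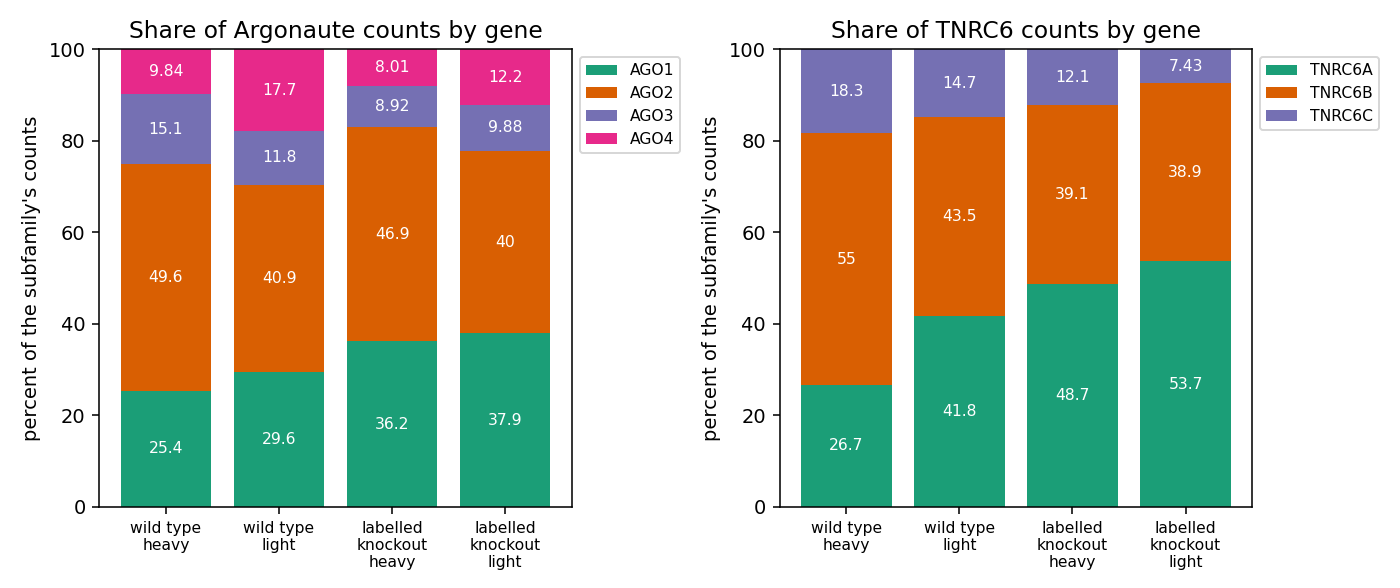
Percent of the summed counts of the 4 Argonaute genes (left) and the 3 TNRC6 genes (right) that came from each gene, by library. TNRC6A makes up 26.7% of TNRC6 counts in wild type and 48.7% in labelled knockout heavy polysomes, and AGO2 holds the largest part of the Argonaute counts in each library.

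The third comparison asked whether the heavy to light ratio itself differed between the genotypes. No member moved 2-fold, where 0.905% of 10834 genes moved toward heavy and 2.37% toward light polysomes in the labelled knockout. Smaller differences were seen in 5 members, 4 toward heavy and 1 toward light polysomes. AGO4 moved toward heavy polysomes by 0.66 on the log2 scale (interval 0.27 to 1.05), AGO1 by 0.57 (0.34 to 0.81), AGO2 by 0.37 (0.18 to 0.57) and TNRC6A by 0.30 (0.10 to 0.50). These are 4 of 7 members with an interval above 0, where 28.6% of genes had one. TNRC6B moved toward light polysomes (-0.54, -0.73 to -0.35), and 37.2% of genes had such an interval. AGO3 (-0.08, -0.47 to 0.30) and TNRC6C (0.18, -0.19 to 0.54) had intervals that included 0.

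Set against each other without scaling, AGO1 and TNRC6B differed by 1.12 in this shift (0.82 to 1.42), AGO4 and TNRC6B by 1.21 (0.77 to 1.65), and TNRC6A and TNRC6B by 0.84 (0.56 to 1.12). TNRC6B thus moved apart from both the Argonautes and its own paralogs, from TNRC6C by -0.72 (-1.13 to -0.31). Genes of like coding length had median shifts of -0.05 to -0.04 for the Argonautes and -0.14 to -0.12 for the TNRC6 genes. TNRC6B lay above 16.0% of its 393 such genes and AGO4 above 91.7% of its 1657.

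The genes whose profile over the 4 libraries was most like a member's were sought among 10827 genes, by the Euclidean distance between mean-centred log2 CPM profiles. For TNRC6A these were AIM1L (distance 0.19) and CYP24A1 (0.23), the vitamin D 24-hydroxylase, whose log2 ratios of labelled knockout to wild type heavy polysomes were 1.44 and 1.38. AGO1 was nearest to TEF (0.09), a PAR bZIP transcription factor, and SAMD4A (0.11), an RNA-binding protein of the Smaug family. AGO2 was nearest to OTUD3 and SDC3, AGO3 to PRKAR2A and ASAH1, and AGO4 to ALKBH5, an RNA demethylase, and SNX25. TNRC6B was nearest to CCDC93 and PTOV1-AS1, an antisense gene whose reads cannot be assigned with certainty, and TNRC6C to BAIAP2 and PTPRF. Those 10 had distances of 0.02 to 0.09. Members were left out of that search and compared apart. The closest pair of members, AGO2 and AGO3, stood 0.53 apart, AGO1 and AGO2 0.64, and TNRC6B and TNRC6C 0.67. With 4 values per gene these distances describe the libraries only.

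The proteins that act with Argonaute and TNRC6 were followed in 3 further lists, whose members were chosen with earlier results of these data known. Of 35 partners and effectors downstream of TNRC6, edgeR called 15 heavy and 4 light and did not call 16 (median 0.32), where 30.0% of all genes were called heavy and 29.3% light. Toward heavy stood TNKS1BP1 (2.33, adjusted p = 1.29e-14), EDC4, a scaffold of the decapping complex (2.32, adjusted p = 5.18e-15), and PAN2, a deadenylase subunit (1.52, adjusted p = 9.49e-08). Toward light stood the deadenylases CNOT7 (-1.69, adjusted p = 7.22e-08) and CNOT6 (-1.24, adjusted p = 4.30e-05) and the decapping enzyme DCP2 (-0.83, adjusted p = 0.00516).

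Between the genotypes 1 of 34 effectors measured was 2-fold higher in both fractions: DCP2, whose counts went from 601 to 1808 in the heavy and from 1489 to 2754 in the light libraries (log2 ratio 1.65 and 1.15). None was 2-fold lower. Of all genes 1.17% were higher and 1.20% lower by the same measure, and the list medians were 0.03 and 0.11.

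Of 25 regulators and interactors of Argonaute that were in the fit, 19 were called heavy (median 1.10), where 30.0% of all genes were, with UPF1, the nonsense-mediated decay helicase, at 2.63 (edgeR adjusted p = 1.96e-17), ZSWIM8 at 2.18 (adjusted p = 2.34e-13) and the helicase MOV10 at 2.13 (adjusted p = 1.39e-12). ANKRD52 is a regulatory subunit of the phosphatase PP6 that removes phosphates from AGO2. Between the genotypes it went from 569 to 2396 counts in heavy and from 327 to 575 in light polysomes. Its log2 ratios of 2.13 and 1.07 were past 2-fold in both, where 1.17% of all genes were. The list medians were 0.02 and 0.39.

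Of 24 genes of microRNA processing and Argonaute loading in the fit, 16 were called heavy and 2 light (median 1.12), against 30.0% and 29.3% of all genes. The loading chaperone factor STIP1 stood at 2.73 (edgeR adjusted p = 4.81e-14), the chaperone HSP90AA1 at 2.37 (adjusted p = 9.67e-10) and HSP90AB1 at 2.34 (adjusted p = 1.06e-09). The DICER1 partners PRKRA (-0.91, adjusted p = 0.00276) and TARBP2 (-0.68, adjusted p = 0.0168) were those called light. None of the 24 was 2-fold apart in both fractions between the genotypes, and the medians were -0.03 and 0.31.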

How the data were processed

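The values are raw read counts by gene symbol in 4 libraries, as deposited. Per the submitters' processing notes the authors used CASAVA, STAR and HTSeq with genome build hg19. No versions, annotation or strand setting were found in those notes. Without separate cultures named, p-values describe these libraries only. The wild type and labelled knockout gradients stood in as replicates of each other, so a genotype difference in the heavy to light ratio enters the residual spread. The fit also drew each gene's spread toward that of all genes, so p-values do not measure a gene's own spread between replicates. The members and lists were chosen with earlier results of these data known.

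Heavy and light polysomes were compared with edgeR 4.0.16 in R 4.3.3 (TMM, filterByExpr, quasi-likelihood test), with the gradient, taken from the genotype, as a block. It leaves 1 residual degree of freedom. SE is the log2 ratio over the root of F. The fit was tested on simulated data with 200 changed genes. That setting had no difference between the genotypes and far fewer changed genes than were called here, so it does not cover the conditions of these data. Genotype ratios are log2 TMM-scaled CPM with a prior count of 2. DESeq2 1.42.0 was an alternative. GENCODE release 44 (GRCh38) held 23035 of the 26364 symbols as written and 1369 under a newer symbol. GENCODE gave gene positions, lengths and 3′ UTRs, and no count was made on it. Named genes were the 7 members, DICER1, the 2 nearest profiles of each member, and up to 3 extreme genes per direction of each list. Of the list of Argonaute regulators, 1 gene is not reported here.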

Additional observations from a re-analysis of the deposited data

Results flagged for a closer look

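In 3 Argonautes the heavy to light ratio had opposite signs in the 2 gradients, with 1 library per group, so the difference was not tested. AGO1 stood at -0.50 in the wild type (interval -0.69 to -0.31) and at 0.07 in the labelled knockout (-0.07 to 0.21). AGO2 stood at -0.0045 (-0.15 to 0.14) and 0.37 (0.24 to 0.50). AGO3 stood at 0.078 (-0.19 to 0.34) and -0.01 (-0.28 to 0.27), with both intervals including 0.

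The ratio of labelled knockout to wild type had opposite signs in the fractions for AGO4, at 0.45 in heavy (0.14 to 0.77) and -0.20 in light polysomes (-0.43 to 0.03), and for AGO3, at -0.0056 in heavy (-0.28 to 0.27) and 0.08 in light polysomes (-0.19 to 0.35). Neither difference was tested.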

How the results depend on the processing

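With no replicate block (gradient not a term), 0 members in place of 1 were called toward light polysomes, and TNRC6B (1.22, edgeR adjusted p = 0.0219) and TNRC6C (1.62, adjusted p = 0.00521) stayed called toward heavy. The labels carry no replicate numbers that could pair libraries, and the gradient was the only block. The sign of ratios that were not called depended on the scaling or filter: AGO2 stood at -0.050 with library totals, and AGO3 at -0.20 with library totals and at -0.076 with a filter of 50 counts in all 4 libraries. With 1.5-fold in place of 2-fold, 2 members (TNRC6A and AGO1) were higher in both fractions, where 4.26% of genes were. At that setting 1 member (AGO4) shifted toward heavy polysomes. The share of all genes that did so was not counted, and 7.59% of 10834 genes had a larger shift toward heavy than AGO4. The ratio of the highest to the lowest level per length was 8.07, and 11.5 with the longest transcript and 6.30 with coding length, a setting chosen after seeing the data. Library totals moved the median of all genes by -0.30 for the wild type heavy to light ratio, by -0.16 for that of the labelled knockout and by 0.14 for the shift. Leaving out 1 gradient left a value with no test: the sign held in each gradient for the 4 called members. The remaining counts over members stayed within 1.5 times, under DESeq2's size factors and test, a prior count of 0.5 and the other filters.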

Other observations

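The PIWI-clade Argonautes, relatives that work in the germ line with PIWI-interacting RNAs, were at or near 0 in these cells. PIWIL1 and PIWIL3 had no count in any library, which allows at most 3 counts, or 0.143 to 0.172 CPM. PIWIL2 counts were 2 (heavy) and 15 (light) in the wild type gradient and 2 and 6 in the other. PIWIL4 counts were 10 and 7, then 2 and 7.

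Some genes beside the members, chosen after their values were seen, are given as log2 ratios. RBBP6, on the lower side of TNRC6A, was at 0.48 in heavy and 0.52 in light polysomes for labelled knockout over wild type, against 1.70 and 1.40 for TNRC6A, and SLC5A11 on the other side had 6 to 10 counts. FAM83F and ADSL, on either side of TNRC6B, had heavy to light ratios of -0.58 and -0.11 in the wild type gradient, where TNRC6B was at 1.54. CLSPN, on the lower side of AGO4, was at 1.87 in the wild type gradient and 0.999 in the other, where AGO4 was at -1.12 and -0.46.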
